A study of Mus musculus with 7 samples.

Results

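The comparison described here set 2 stages of early αβ T cell development in the mouse thymus against each other, the DN3a thymocytes before β-selection and the DN3b γδ- thymocytes (labelled DN3b gd-) that follow them. The cells came from wild-type C57BL/6 mice of 6 to 8 weeks, and thymi of both sexes were pooled, so that single animals cannot be told apart in the data. Cells bearing CD4 or CD8 were removed with beads, NK1.1-positive cells were gated out, and both populations were sorted as CD44-negative, CD25-positive cells. DN3b γδ- cells were taken as CD71-positive and DN3a cells as CD71-negative, with antibody to TCRδ used to set γδ cells aside. About 500 splenic B cells were spiked into each sort, and single-cell 3′ libraries with unique molecular identifiers (UMIs) were made on a 10x Chromium. Each stage was 1 library, so no test of the stages was possible, and every interval given below covers counting error only. A barcode stands for 1 droplet, and barcodes were kept when they held at least 1000 detected genes, at most 10% of UMIs from mitochondrial-genome genes and at most 1 UMI of the B cell genes Cd79a, Cd79b and Ms4a1 together. The rule kept 24218 barcodes, 17959 of DN3b γδ- and 6259 of DN3a, of 66446 kept in the 7 libraries of the series.

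At the DN3 stage thymocytes rearrange the T cell receptor (TCR) β locus with the RAG recombinase under Notch signalling from the thymic stroma. A cell whose β rearrangement is in frame assembles the β chain with the invariant pre-Tα chain, encoded by Ptcra, and with the CD3 chains into the pre-TCR. Pre-TCR signalling through the kinases Lck and ZAP-70 or Syk and the adaptor LAT is known to drive survival, growth and rapid division and to close recombination at the β locus, which together make up β-selection.

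Depth differed between the 2 libraries. The kept barcodes held 338002035 UMIs in DN3b γδ- and 50856437 in DN3a, with medians of 17203 and 7387 UMIs and of 3805 and 2360 detected genes per barcode. The mean was 18821 UMIs per barcode in DN3b γδ- and 8125 in DN3a, a ratio of 2.32, while the median of the spiked B cells went the other way, with a ratio of 0.689 between 261 and 112 barcodes. Genes of the mitochondrial genome held 2.76% of UMIs in DN3b γδ- and 6.72% in DN3a, and 4.05% and 6.70% of the UMIs of the B cells. The libraries shared 42 kept barcode sequences, 0.671% of those of DN3a and 0.234% of those of DN3b γδ-. Xist, transcribed from the inactive X chromosome, had a UMI in 53.4% of DN3a and 57.0% of DN3b γδ- barcodes when each barcode was brought to 4000 UMIs.

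The label was checked against marker genes. At least 3 UMIs of Cd3d, Cd3e and Cd3g were present in all kept barcodes except 4 of DN3a and 133 of DN3b γδ-, the last being 0.741% of that library. DN1 and DN2 progenitor markers were low, since Cd44 was at 0.413 CPM (counts per 1000000, that is, UMIs of the gene per 1000000 UMIs of the library) in DN3a and 0.473 in DN3b γδ-, Flt3 at 0.0787 and 0.0325, and Kit at 13.5 and 4.81. Cd4, which the depletion used, was at 0.295 and 0.127 CPM. Of 9 DN3 markers 8 were at least 2-fold lower in DN3b γδ- and none higher, with sums of 6954 and 1803 CPM. Of 9 γδ T cell markers past 5 CPM, 4 were at least 2-fold lower, 4 lay within 2-fold and 1, Pdcd1, was higher. The 10 γδ markers listed summed to 1822 and 847.9 CPM. Some defining myeloid, plasmacytoid and stromal markers were at or near 0 on both sides, among them Csf1r at 0.0197 and 0.0266 CPM, Siglech at 0 (3 UMIs would be 0.0590 CPM in that library) and 0.00296, and Psmb11 at 0.0590 and 0.0385. The 3 whole marker lists summed to 153.3 and 101.7 CPM (myeloid, 9 genes), 561.5 and 208.4 CPM (plasmacytoid, 5 genes) and 213.6 and 60.8 CPM (stroma, 7 genes). Each held a gene past 5 CPM that fell, Lyz2 from 19.4 to 1.28 CPM, Bst2 from 550.2 to 199.7 CPM and Epcam from 167.2 to 33.5 CPM. The 4 globin genes summed to 0.157 CPM in DN3a and 3.89 in DN3b γδ-, and none of them reached 5 CPM. The 10 B cell markers summed to 151.5 CPM in DN3a and 246.7 in DN3b γδ-, of which Ighm made 82.4 and 214.5, and 3 of the 10 (Cd79a, Cd79b and Ms4a1) were capped by the rule that kept barcodes. Of the 4 past 5 CPM, Ighm was at least 2-fold higher in DN3b γδ-, 2 were at least 2-fold lower and 1 lay within 2-fold. The 5 NK markers summed to 371.2 and 706.4 CPM, of which Gzma made 223.6 and 676.1, while Klrb1c, the gene of the gated NK1.1 antigen, was at 0.0393 and 0.00888 CPM. The 2 NK markers past 5 CPM went opposite ways, with log2 ratios of DN3b γδ- over DN3a of 1.60 for Gzma and -2.28 for Nkg7. The part of these markers in the results was not tested.

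The genes of 2 sort antigens differed between the libraries. Tfrc, which encodes CD71, was at 31.4 CPM in DN3a and 72.3 CPM in DN3b γδ-, a log2 ratio of DN3b γδ- over DN3a of 1.202 (95% counting interval 1.13 to 1.28). Il2ra, which encodes CD25, was at 612.0 and 96.9 CPM, a log2 ratio of -2.66, although both gates were CD25-positive. CD71 defined the 2 gates and CD25 bounded them, so both genes are given as a description of the sort.

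Of 9261 genes with at least 5 CPM in 1 of the libraries, 901 (9.73%) were at least 2-fold higher in DN3b γδ- and 1636 (17.7%) at least 2-fold lower, a size rule that takes the place of a test here. A further 6724 genes (72.6%) lay within 2-fold, and the median log2 ratio was -0.13. In the text a gene is said to have risen or fallen only where it passed 2-fold. These 2 percentages are the background for every count of a gene list in CPM over all barcodes. The larger steps were of like number on both sides, with 124 genes at least 8-fold higher and 108 at least 8-fold lower. Among those that rose most were genes of mitosis and DNA replication, such as Ube2c, Mki67, Pclaf and Top2a, and the lowest among abundant transcripts included Rag1, Notch3, Junb and Hes1. Sums of a library cannot tell fewer cells with a transcript from less of it per cell. A share of barcodes cannot either for a transcript of few UMIs per barcode, since the share then falls with the level. The share of barcodes with at least 1 UMI is given beside the level as a description, after every barcode was brought to 4000 UMIs. This left 6109 DN3a and 17652 DN3b γδ- barcodes, with 150 and 307 shallower ones left out. At that depth 958 genes were found in a share of barcodes at least 10 percentage points higher in DN3b γδ-, and 663 in a share at least 10 points lower.

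**Figure D1:**
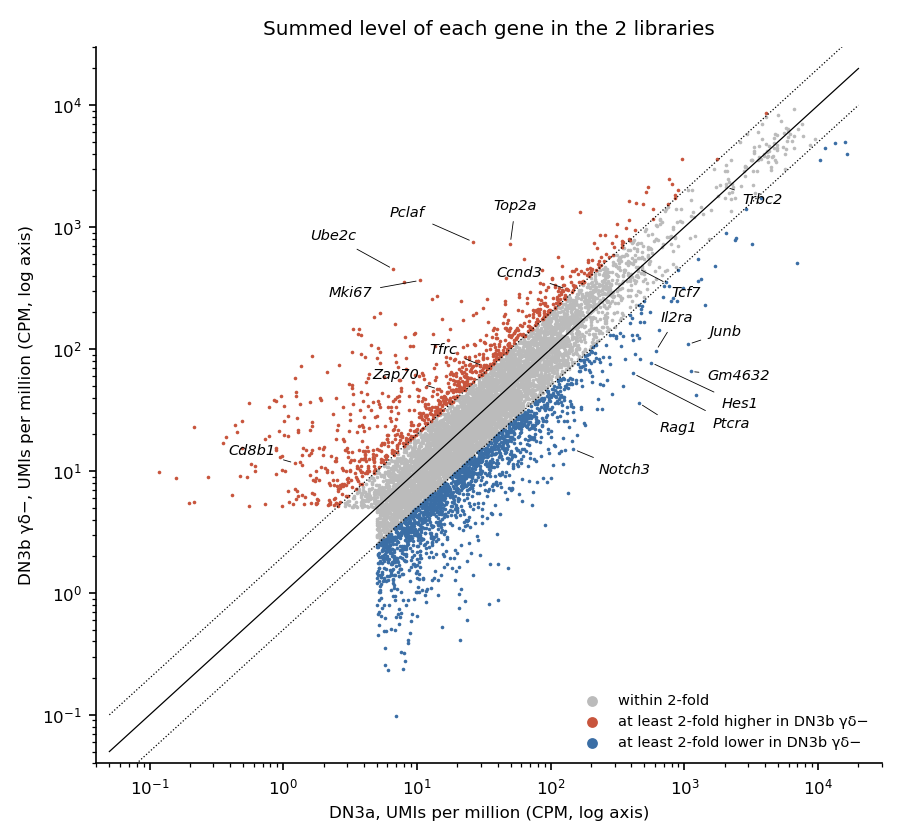
Summed level of each of the 9261 genes in DN3a (horizontal) and DN3b γδ- (vertical), both in CPM on log axes, 1 point per gene, with the diagonal as a solid line and the 2-fold limits dotted. The 901 genes in red lie above the upper limit and the 1636 in blue below the lower one, with Ube2c far above the diagonal and Rag1 and Notch3 far below it.

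CPM is a share of each library, and the scale decides how a fall reads. Since a DN3b γδ- barcode held on average 2.32 times as many UMIs, a log2 difference of 1.21, a gene whose CPM fell by less than that had more UMIs per barcode in DN3b γδ- than in DN3a. Counted as UMIs per barcode, 4996 genes (53.9%) were at least 2-fold higher in DN3b γδ- and 287 (3.10%) at least 2-fold lower, and 407 of the genes past 2-fold in CPM changed direction. With the trimmed mean of M values (TMM), which shifts every log2 ratio by 0.40, 1782 genes were higher and 878 lower. Of 44 gene lists with a median, 17 that lay below 0 in CPM lay above 0 per barcode, which follows from the same shift of 1.21 for every gene. Levels below are in CPM unless UMIs per barcode are named, and the second scale is given for the genes whose fall is described in most detail. Counts of a list per barcode stand beside 53.9% of all genes higher, 3.10% lower and a median of 1.09. With TMM the background was 19.2% higher and 9.48% lower. In barcodes low in cycle transcripts, described below, it was 6.30% and 8.10%.

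Among 8 genes of the pre-TCR and TCR chains, 3 fell (Ptcra, Cd3g and Cd3d), 1 rose (Trac) and 4 lay within 2-fold, with a list median of -0.80. Counted per barcode, 3 were at least 2-fold higher and 1 lower (median 0.42, beside 1.09 over all genes). Ptcra, the gene of pre-Tα, was at 412.2 CPM in DN3a and 63.1 CPM in DN3b γδ-, and its UMIs per barcode went from 3.35 to 1.19. The log2 ratio of the CPM levels was -2.71 (-2.74 to -2.68), and the share of barcodes with a Ptcra UMI was 72.3% in DN3a and 20.8% in DN3b γδ-. In the spiked B cells, which should lack the transcript, the shares were 2.70% and 2.78%. They rest on 37 and 36 B cell barcodes of at least 4000 UMIs, where a count of 0 allows a share of up to 8.11% and 8.33%. The source of thymocyte transcripts in B cell barcodes was not tested. Cd3g was at 3189 and 730.1 CPM and Cd3d at 1701 and 477.1 CPM, log2 ratios of -2.13 and -1.83, whereas Cd3e went from 736.4 to 445.8 CPM (-0.72) and Cd247, the gene of the ζ chain, from 143.0 to 78.5 CPM (-0.87). The CD3 genes thus did not move alike, and per barcode Cd3g went from 25.9 to 13.7 UMIs while Cd3e went from 5.98 to 8.39.

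The β constant regions were nearly level between the stages. Trbc2 was at 2041 CPM in DN3a and 2133 in DN3b γδ- (log2 ratio 0.06), and Trbc1 at 1378 and 1281 CPM (-0.10); the 2 are near-identical copies whose reads the counting could split. A UMI of any Vβ segment was found in 5.34% of DN3a (4.79 to 5.93%) and 5.88% of DN3b γδ- barcodes (5.54 to 6.24%) at 4000 UMIs, which are intervals that overlap. Without bringing barcodes to 1 depth the shares were 10.0% and 23.5%. The 35 Vβ genes summed to only 13.7 CPM in DN3a and 16.2 in DN3b γδ-, with none past 5 CPM. With so few UMIs in 3′ libraries, these shares cannot tell how many cells held a rearranged β gene. The γδ constant regions gave 2 of 4 genes lower and none higher (median -1.13), with Trdc at 314.6 and 201.6 CPM. None of the 4 passed 2-fold with TMM (median -0.73) or per barcode (0.079). Transcripts of the α constant region, Trac, rose from 1.18 to 5.33 CPM (log2 ratio 2.18, 1.81 to 2.57), on 60 and 1802 UMIs.

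The 250 bases before the RefSeq start of Ptcra, chr17:46763713-46763962 on the minus strand of GRCm38.p6, are shown because Ptcra is both a pre-TCR chain and a known Notch target. Capitals mark TGGGAA, the core that the Notch cofactor RBPJ is known to bind, which occurs at 2 places.
Ptcra: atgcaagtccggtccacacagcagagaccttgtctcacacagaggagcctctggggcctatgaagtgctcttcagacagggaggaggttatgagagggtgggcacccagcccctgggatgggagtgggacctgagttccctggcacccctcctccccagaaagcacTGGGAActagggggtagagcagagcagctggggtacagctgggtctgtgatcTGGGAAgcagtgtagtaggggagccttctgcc
Searched on both strands of windows from 250 bases before to 50 after a gene's start, this core was in 6 of 23 windows of the Notch list (26.1%) and in 21.9% of the 9462 windows of all genes past 5 CPM, so these 6 letters are common and describe the sequence only. Windows were found for 17 of the 19 genes of the list.

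Of the 10 genes of V(D)J recombination past 5 CPM, 3 fell (Rag1, Rag2 and Dclre1c), none rose and 7 lay within 2-fold, with a median of -0.91. Rag1, which encodes the catalytic recombinase subunit, was at 455.9 CPM in DN3a and 36.1 CPM in DN3b γδ-, and at 3.70 and 0.680 UMIs per barcode. Its log2 ratio was -3.66 (-3.69 to -3.63), the lowest of the list, and a Rag1 UMI was in 70.1% of DN3a and 12.96% of DN3b γδ- barcodes, beside 5.41% and 2.78% of B cells. Rag1 (ENSMUSG00000061311, chr2:101638282-101649501 on mm10) and its partner Rag2 (chr2:101624718-101632529) are neighbours, and Rag2 went from 55.9 to 11.3 CPM (-2.30). Dntt, which encodes the terminal transferase that adds untemplated bases at junctions, was at 1528 and 797.1 CPM (-0.94) and kept a UMI in 99.1% and 93.8% of barcodes. Dclre1c, the gene of the hairpin-opening nuclease Artemis, fell by 1.999 on the log2 scale, while the end-joining genes Xrcc5 and Xrcc6 had log2 ratios of 0.62 and -0.25. In CPM the 3 falls were thus those of both RAG genes and of Artemis. Per barcode 2 of the 10 genes were lower and 2 higher (median 0.30), beside 3.10% and 53.9% of all genes and a median of 1.09. Dclre1c then lay within 2-fold.

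**Figure D2:**
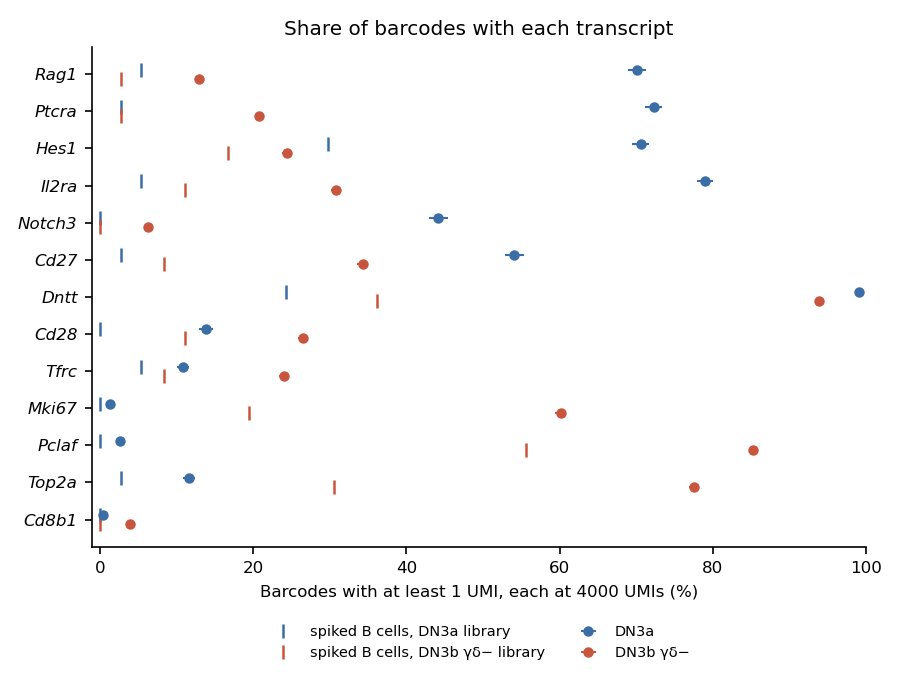
Share of barcodes with at least 1 UMI of each gene (horizontal, %), every barcode brought to 4000 UMIs, for DN3a (blue dots) and DN3b γδ- (red dots) with exact binomial 95% intervals that are mostly narrower than the dots; ticks mark the spiked B cells of each library. Rag1, Ptcra, Hes1, Il2ra and Notch3 lie further right in DN3a, Mki67, Pclaf and Top2a in DN3b γδ-, and Pclaf was also found in 55.6% of the B cells of the DN3b γδ- library.

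In the Notch pathway 13 of 19 genes fell, none rose and 6 lay within 2-fold, against a background of 17.7% of genes lower, with a median of -1.25. Among the receptors, Notch3 was at 147.7 CPM in DN3a and 15.1 CPM in DN3b γδ- (-3.29, -3.34 to -3.24) and Notch1 at 454.0 and 123.7 CPM (-1.88). Of the targets, Hes1, a transcriptional repressor, was at 562.4 and 77.5 CPM (-2.86) and Dtx1, which encodes the ligase Deltex, at 70.5 and 12.7 CPM (-2.47). Counted per barcode, 5 of 19 genes were at least 2-fold lower and 2 higher, with a median of -0.03, where 3.10% of all genes were lower, 53.9% higher and the median was 1.09. Notch3, from 1.2 to 0.284 UMIs per barcode, and Hes1, from 4.57 to 1.46, were among the 5, while Notch1 lay within 2-fold at 3.69 and 2.33. A Notch3 UMI was in 44.2% of DN3a and 6.24% of DN3b γδ- barcodes and in 0% of the B cells of either library. For so few B cells a count of 0 allows a share of up to 8.11% and 8.33%. Of the nuclear partners, Rbpj was within 2-fold at 48.8 and 34.5 CPM and the coactivator gene Maml1 fell from 12.7 to 3.01 CPM (-2.08). Tcf7, which encodes the T cell factor TCF-1 and is also a Notch target, was level at 447.0 and 460.4 CPM (0.04). The 2 list members that the sort or the pre-TCR list also holds, Il2ra and Ptcra, are counted here among the 13.

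Of 25 genes of proximal TCR signalling, 2 rose, 7 fell and 16 lay within 2-fold, with a median of -0.51. Per barcode 9 were higher and 1 lower (0.70), beside 53.9% and 3.10% of all genes and a median of 1.09. With TMM 3 were higher and 1 lower, beside 19.2% and 9.48% of all genes. Zap70, the kinase that docks on phosphorylated CD3 chains, rose from 14.5 to 46.7 CPM (1.69, 1.58 to 1.799), and Syk, its relative, fell from 19.3 to 9.60 CPM (-1.005, -1.11 to -0.90). The 2 kinases therefore moved in opposite directions in CPM, although Syk per barcode was 0.157 UMIs in DN3a and 0.181 in DN3b γδ- and did not fall. Syk is also a B cell transcript and was found in 67.6% and 47.2% of the spiked B cells. Cblb, a ubiquitin ligase that restrains TCR signalling, fell from 95.7 to 15.01 CPM (-2.67), the largest fall of the list. Lck was at 866.6 and 472.8 CPM (-0.87) and Lat at 643.5 and 467.9 CPM (-0.46), and Themis had a log2 ratio of -1.39. Dgkeos, a transcript antisense to the Dgke gene, fell from 308.0 to 126.9 CPM (-1.28). It is 1 of 5 genes that the study's text names from a pre-TCR signature found on these samples, so that they are no independent evidence of a direction. The study drew that signature from DN3b γδ- and DN4 γδ- cells against DN3b γδ+ cells, and not against DN3a. It describes the signature genes other than Cd8b1 and Spats2 as already expressed in DN3a, with a weaker repression on the αβ path than towards DN3b γδ+. Of the 5 named genes, Cd8b1 rose, Ptcra, Rag1 and Dgkeos fell, and Spats2 was at 45.2 and 54.7 CPM (0.28).

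Of 22 genes known to be induced by receptor signals, 3 rose, 14 fell and 5 lay within 2-fold, with a median of -1.63. The 3 that rose were Etv5, an ETS factor downstream of ERK, from 1.26 to 6.90 CPM (2.46), Id3, an inhibitor of E proteins, from 36.9 to 91.7 CPM (1.31, 1.25 to 1.38), and Cd5, a surface brake on TCR signalling, from 4.76 to 10.9 CPM (1.197). The AP-1 genes were among those that fell, with Junb at 1064 and 109.3 CPM (-3.28), Jun at 463.1 and 82.5 CPM (-2.49) and Fos at 171.5 and 49.4 CPM (-1.797). Tnfaip3, a brake on NF-κB, was at 79.5 and 8.12 CPM (-3.29), and Egr1, an early growth response factor, at 24.6 and 7.14 CPM (-1.78). Per barcode the list gave 5 genes higher and 3 lower (median -0.42, beside 1.09 over all genes), and Fos and Egr1 then lay within 2-fold. In barcodes low in cycle transcripts, described below, 7 of 19 were lower and none higher, beside 8.10% and 6.30% of all genes. In the spiked B cells, 16 genes of the list had a median log2 ratio of -0.003 between the same 2 libraries, on 112 and 261 barcodes.

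Most S phase and G2 and M phase genes were higher in DN3b γδ-. Of 42 S phase genes 35 rose, none fell and 7 lay within 2-fold (median 1.85), and of 52 G2 and M phase genes 45 rose, none fell and 7 lay within 2-fold (median 3.72), where 9.73% of all genes were higher. The summed level of the S phase list went from 2021 to 6067 CPM and that of the G2 and M list from 2328 to 9749 CPM. Counted per barcode, all 42 and all 52 genes were at least 2-fold higher. In the B cells of the DN3b γδ- library the same lists were also higher than in those of DN3a, with medians of 1.78 over 41 genes and 1.49 over 48. Genes with 0 UMIs in the DN3a B cells entered these ratios as 3 counts, which holds the ratios down. Birc5, with 0 and 73 B cell UMIs, and Cenpf, with 0 and 23, were among them, so the B cell medians cannot be set against those of the thymocytes by size.

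Ube2c, which encodes the ubiquitin-conjugating enzyme of the anaphase-promoting complex, was at 6.65 CPM in DN3a and 451.8 CPM in DN3b γδ-, a log2 ratio of 6.09 (5.93 to 6.25). Its share of barcodes was 0.884% in DN3a and 52.4% in DN3b γδ-, with 0% and 22.2% of the B cells. Mki67, the gene of the Ki-67 proliferation antigen, was at 10.6 and 365.8 CPM (5.11, 4.99 to 5.24) and in 1.31% and 60.2% of barcodes. Mcm5, which encodes a subunit of the replicative helicase, was at 45.8 and 234.3 CPM (2.36, 2.30 to 2.42). The 3 genes stand for mitosis, the whole cycle and S phase, and their upstream sequences are shown because cycle genes are known to share promoter elements. For each gene the 250 bases before its RefSeq start on GRCm38.p6 are given, at chr2:164769679-164769928 (plus strand) for Ube2c, chr7:135716380-135716629 (minus) for Mki67 and chr8:75109259-75109508 (plus) for Mcm5. Capitals in the first 2 mark TTTGAA, the core of the cell cycle homology region (CHR), and the CCAAT box, and in Mcm5 they mark TTTGGCGC, a form of the E2F site, and the CCAAT box, each on either strand.
Ube2c: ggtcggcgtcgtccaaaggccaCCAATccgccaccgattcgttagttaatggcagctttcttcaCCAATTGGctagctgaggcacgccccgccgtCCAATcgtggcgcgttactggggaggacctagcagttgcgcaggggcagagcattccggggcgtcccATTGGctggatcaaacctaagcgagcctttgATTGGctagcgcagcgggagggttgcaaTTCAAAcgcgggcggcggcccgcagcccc
Mki67: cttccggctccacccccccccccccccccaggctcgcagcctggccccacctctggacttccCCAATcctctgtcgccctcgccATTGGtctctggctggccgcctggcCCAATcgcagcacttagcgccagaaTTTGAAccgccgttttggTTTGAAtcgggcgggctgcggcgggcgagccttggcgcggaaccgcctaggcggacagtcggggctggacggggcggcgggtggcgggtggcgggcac
Mcm5: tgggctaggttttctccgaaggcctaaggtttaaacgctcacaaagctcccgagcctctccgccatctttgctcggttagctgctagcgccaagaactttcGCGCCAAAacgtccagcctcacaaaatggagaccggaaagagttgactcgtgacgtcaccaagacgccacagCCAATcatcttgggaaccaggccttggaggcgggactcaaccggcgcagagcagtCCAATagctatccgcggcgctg
The Ube2c stretch holds 1 CHR core and 6 CCAAT boxes, of which a pair overlaps, that of Mki67 holds 2 and 3, and that of Mcm5 holds 1 E2F form and 2 CCAAT boxes.

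Over the lists, the CHR core was in 34 of 51 windows of the G2 and M genes (66.7%), in 18.2% of the 33 windows of the S phase genes and in 12.4% of all 9462 windows of genes past 5 CPM. The E2F forms TTTCCCGC and TTTGGCGC were in 10 of the 33 S phase windows (30.3%), in 3.92% of the G2 and M windows and in 3.36% of all. The CCAAT box was frequent everywhere, in 74.5% of G2 and M, 66.7% of S phase and 38.8% of all windows. Windows were found for 30 of the 42 and 46 of the 52 genes, and a match describes the letters of the window and not a bound site.

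Per barcode, the 2 lists together held a median of 14 UMIs in DN3a and 60 in DN3b γδ- of the 4000 sampled. The S phase list held a median of 5 UMIs in DN3a and 24 in DN3b γδ-, and the G2 and M list 8 and 33. At or below 14 UMIs lay 3518 of the 6109 DN3a barcodes (57.6%) and 168 of the 17652 DN3b γδ- barcodes (0.952%). At or below 34 UMIs, the 95th percentile of DN3a, lay 95.4% and 6.85%. The 2 libraries were thus nearly separate in cycle transcripts, and 281 DN3a barcodes lay above that limit. CD71, which set the 2 gates, is linked by the study to proliferation. How much of the separation in cycle and growth genes the gate itself made was not tested.

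**Figure D3:**
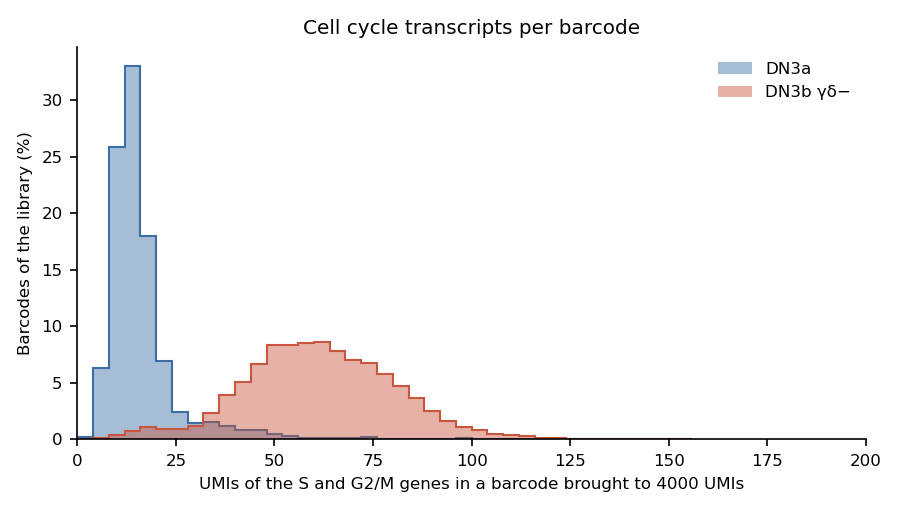
UMIs of the S and G2 and M phase genes per barcode (horizontal), every barcode brought to 4000 UMIs, as the percentage of barcodes of each library in bins (vertical), DN3a in blue and DN3b γδ- in red. DN3a barcodes gather around their median of 14 and DN3b γδ- barcodes spread around their median of 60.

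Replication-dependent histone genes went in both directions, with 26 of 41 higher, 7 lower and 8 within 2-fold (median 1.40). Hist1h3c rose from 0.845 to 38.1 CPM (5.49), while Hist3h2a fell from 78.2 to 12.1 CPM (-2.69). Most messages of these genes carry no poly(A) tail, and the library chemistry primes on poly(A), so these levels are of the fraction it could prime. Several are near-identical copies whose reads the counting could split.

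Regulators of entry into the cycle went in both directions. Of 23 past 5 CPM, 12 rose, 7 fell and 4 lay within 2-fold, with a median of 1.02. In barcodes low in cycle transcripts the direction turned, with 3 higher and 6 lower of 21 (-0.39), beside 6.30% and 8.10% of all genes. The lists that chose those barcodes share Ccne2 and E2f8 with this list, so the turn is not independent of the choice. The D-type cyclins moved apart, since Ccnd3, whose loss is known to impair expansion at β-selection, rose from 131.9 to 309.5 CPM (1.23, 1.19 to 1.27) and Ccnd2 fell from 306.1 to 123.5 CPM (-1.31). Their partners did the same, with Cdk4 at 203.3 and 455.1 CPM (1.16) and Cdk6 at 899.0 and 440.8 CPM (-1.03). Per barcode, Ccnd2 held 2.49 and 2.33 UMIs and Cdk6 7.31 and 8.30, so that the fall of Cdk6 was one of share and not of UMIs per barcode. Ccne1, the gene of cyclin E1, rose from 1.34 to 35.5 CPM (4.73), and E2f1 from 10.3 to 59.9 CPM (2.54). A pair of inhibitors fell, Cdkn1a (p21) from 87.7 to 8.73 CPM (-3.33) and Cdkn1b (p27) from 112.1 to 37.8 CPM (-1.57), and so did the antiproliferative genes Btg1, from 345.0 to 49.99 CPM (-2.79), and Btg2, from 231.5 to 51.2 CPM (-2.18). In the B cells Btg1 was found in 97.3% and 94.4% of barcodes.

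**Figure D4:**
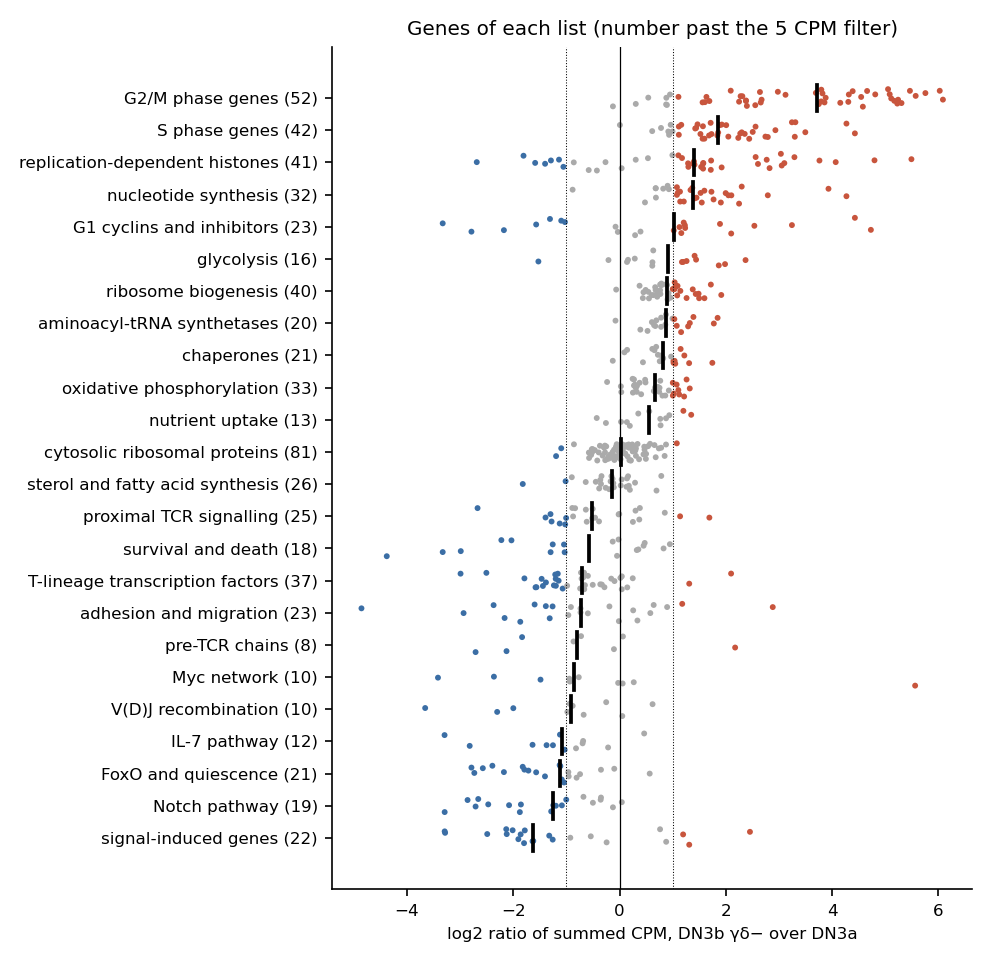
log2 ratio of summed CPM, DN3b γδ- over DN3a (horizontal), for the genes of each list past 5 CPM (rows, with the number of genes), 1 point per gene, red for at least 2-fold higher, blue for at least 2-fold lower, and a black bar at the list median. The lists run from G2 and M phase genes (median 3.72) to signal-induced genes (median -1.63), and the dotted lines mark 2-fold.

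The Myc network gave 1 gene higher, 3 lower and 6 within 2-fold of 10. Myc itself was at 98.1 CPM in DN3a and 51.3 CPM in DN3b γδ- (-0.94, within 2-fold), and at 0.797 and 0.966 UMIs per barcode. The genes of the MXD proteins, which compete with MYC for their partner MAX, moved in opposite directions, with Mxd3 rising from 1.22 to 57.7 CPM (5.56) and Mxd4 falling from 131.4 to 25.5 CPM (-2.36). Mycn fell from 9.48 to 0.888 CPM (-3.42).

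Genes of biosynthesis were higher or within 2-fold, and few fell. In nucleotide synthesis 24 of 32 genes rose and none fell (median 1.39), and the list shares Tyms, Rrm1 and Rrm2 with the S phase list. In the spiked B cells the same 32 genes had a median of 1.465 between the libraries, and their summed level went from 889.9 to 2256 CPM. Rrm2, the regulated subunit of ribonucleotide reductase, went from 13.98 to 270.0 CPM (4.27), Tk1, thymidine kinase, from 8.18 to 125.0 CPM (3.93), and Mthfd2, a mitochondrial folate enzyme, from 21.9 to 104.4 CPM (2.25). In glycolysis 8 of 16 rose, 1 fell and 7 lay within 2-fold (median 0.91, and 0.69 over 14 genes in the B cells). The fall was that of Ldhb, from 246.6 to 85.6 CPM (-1.53), beside a rise of Ldha from 234.5 to 855.7 CPM (1.87, 1.84 to 1.89). Lactate dehydrogenase therefore changed in the makeup of its subunit messages, and per barcode Ldha went from 1.91 to 16.1 UMIs and Ldhb from 2.004 to 1.61. Pkm, pyruvate kinase, rose from 191.2 to 519.3 CPM (1.44), and Pfkp, a phosphofructokinase, from 7.30 to 37.8 CPM (2.37).

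In the lists of growth genes most members lay within 2-fold. Of 40 ribosome biogenesis genes 16 rose and none fell (median 0.90), among them Ncl, nucleolin, from 810.5 to 2273 CPM (1.49) and Lyar, a nucleolar factor, from 101.4 to 382.4 CPM (1.92). Their products are not the ribosomal proteins, of whose 81 genes 1 rose, 2 fell and 78 lay within 2-fold (median 0.02). Of 21 chaperone genes 8 rose and none fell (0.81), with Hspd1, the mitochondrial chaperonin, at 314.0 and 1054 CPM (1.75), and of 20 aminoacyl-tRNA synthetases 8 rose and none fell (0.87). Nuclear genes of oxidative phosphorylation gave 9 of 33 higher and none lower (0.67), and 8 of the 13 mitochondrial-genome genes were lower and none higher (-1.22). The rule capped the latter at 10% of the UMIs of a barcode and left out 2709 DN3a and 773 DN3b γδ- barcodes for it, so their levels are given as a description. Among them mt-Nd1 was at 2167 and 2357 CPM and mt-Atp6 at 15771 and 4957 CPM, and the same 13 genes had a median of -0.75 in the B cells. Sterol and fatty acid synthesis gave no gene of 26 higher, 2 lower and 24 within 2-fold (-0.14), and per barcode 16 higher and none lower (1.07, near the 1.09 of all genes). Nutrient uptake gave 2 of 13 higher, the nucleoside transporter gene Slc29a1 and Tfrc, whose product defined the gates, and none lower. In the spiked B cells the medians were 0.97 for ribosome biogenesis, 0.67 for chaperones, 0.55 for synthetases and 0.42 for oxidative phosphorylation. Sterol and fatty acid synthesis gave 0.63 there and nutrient uptake 0.66. Over 2720 genes of at least 50 CPM in B cells their median was 0.30, with 12.2% at least 2-fold higher and 1.4% lower. The same genes gave 10.3% and 12.6% in thymocytes, and the cause was not tested.

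In the FoxO and quiescence list most genes were lower, and in the survival list 9 of 18. Among 21 genes of the FoxO and quiescence list 14 fell, none rose and 7 lay within 2-fold (median -1.13), and in the B cells the same list had a median of -0.07. Txnip, an inhibitor of glucose uptake, was at 136.1 and 22.9 CPM (-2.57), and Pik3ip1, an inhibitor of PI3 kinase, at 168.2 and 32.03 CPM (-2.39). Per barcode 4 of the 21 were lower and 2 higher, with a median of 0.09 beside 1.09 over all genes, and Txnip (1.11 to 0.430 UMIs) and Pik3ip1 (1.37 to 0.603 UMIs) fell on both scales. In the IL-7 pathway 7 of 12 fell and none rose (-1.08). Per barcode 2 were lower and 1 higher (0.14, beside 1.09 over all genes). Il7r, the receptor gene, was within 2-fold at 89.6 and 77.2 CPM, and the falls included the feedback inhibitors Cish, at 16.01 and 1.63 CPM (-3.29), and Socs3, at 60.5 and 8.56 CPM (-2.82). Of 18 survival and death genes 9 fell and none rose (-0.58), led by Bmf, a BH3-only death gene, from 20.6 to 0.988 CPM (-4.38), and Trp53inp1, a p53 target, from 156.5 to 19.7 CPM (-2.99). Mcl1, a survival gene, fell from 259.2 to 108.4 CPM (-1.26), so in CPM the falls were on both sides of the balance. The fall of Mcl1 was close to the shift of 1.21 between the scales, and per barcode it lay within 2-fold. Per barcode the survival list gave 9 genes at least 2-fold higher and 4 lower, with a median of 0.63, beside 53.9% of all genes higher, 3.10% lower and a median of 1.09.

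Among 37 T-lineage transcription factors 2 rose, 15 fell and 20 lay within 2-fold (-0.71). Per barcode 9 were higher and 2 lower (0.50), beside 53.9% and 3.10% of all genes and a median of 1.09. The 2 that rose were Id3, described above, and Ikzf3, which encodes the Ikaros relative Aiolos, from 2.30 to 9.86 CPM (2.10). Id2 fell where Id3 rose, from 47.2 to 5.93 CPM (-2.99), so that these inhibitors of E proteins moved in opposite directions. Zfp36l1, an RNA-binding protein gene, went from 148.7 to 26.2 CPM (-2.51), and Runx1 from 349.3 to 128.6 CPM (-1.44), while Gata3, at 99.8 and 82.0 CPM, lay within 2-fold. Of the 7 progenitor regulators past 5 CPM 6 fell and 1, Zfpm1, rose. Spib, an ETS factor of early thymocytes and B cells, went from 20.6 to 0.754 CPM (-4.77), and Erg from 12.6 to 1.104 CPM (-3.52).

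Surface genes for adhesion and migration gave 2 higher, 9 lower and 12 within 2-fold of 23 (-0.73). Per barcode they gave 9 higher and 3 lower (0.48), beside 53.9% and 3.10% of all genes and a median of 1.09. Ccr9, the receptor for the thymic chemokine CCL25, was at 181.1 and 23.7 CPM (-2.94), and Itgae, the αE integrin, at 8.06 and 0.278 CPM (-4.86). Cd81, a tetraspanin, rose from 2.50 to 18.4 CPM (2.88), and Cd6 was the other gene that rose (1.18). The costimulatory receptor genes went different ways within 2-fold, with Cd28 at 46.1 and 83.4 CPM (0.86) and in 13.8% and 26.5% of barcodes, and Cd27 at 199.5 and 105.4 CPM (-0.92) and in 54.1% and 34.3%.

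Of 7 marker genes of the later CD8-bearing and CD4 CD8 double-positive stages, 4 passed 5 CPM, of which Cd8b1, Cd2 and Trac rose and Arpp21 fell, from 729.3 to 357.1 CPM (-1.03). Cd8b1, the CD8β gene, was at 1.22 CPM in DN3a (62 UMIs) and 11.6 CPM in DN3b γδ- (3922 UMIs), a log2 ratio of 3.25 (2.89 to 3.64). It was found in 0.377% and 3.87% of barcodes and in 0% of the B cells of either library. A count of 0 in these B cells allows a share of up to 8.11% and 8.33%. Cd2, an adhesion receptor, went from 0.413 to 6.33 CPM (3.94), while Cd8a, the CD8α gene, at 0.0590 and 1.63 CPM stayed under 5 CPM. The levels of both CD8 genes were below those of the wild-type DN4 γδ- library, where Cd8b1 was at 98.6 CPM and Cd8a at 7.92.

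The genes with the largest log2 ratios among those of at least 20 CPM were taken without ribosomal protein, mitochondrial-genome and TCR segment genes and without genes higher in the spiked B cells. Of the 15 highest, H2-Q2 stood first at 0.216 CPM in DN3a and 22.9 CPM in DN3b γδ- (6.73). It is a class I MHC gene of a family of near-identical copies, so its count is uncertain, it was found in 0.0655% and 7.44% of barcodes, and it reached 43.0 CPM in DN4 γδ-. The other 14 are known for mitosis, chromatin or the cycle, such as the kinesin gene Kif2c (0.551 to 35.9 CPM, 6.03), Hmmr (1.63 to 88.3 CPM, 5.76), the mitotic kinase gene Plk1 (1.36 to 73.2 CPM, 5.75) and the cyclin gene Ccna2 (3.32 to 145.9 CPM, 5.46). Among the genes ranked this way, the widest gain in share of barcodes was that of Pclaf, a PCNA-binding factor, from 2.64% to 85.2% (26.3 to 756.7 CPM). It was followed by Top2a, topoisomerase II, from 11.6% to 77.5%, and Tuba1b, α-tubulin, from 30.6% to 96.5%, with 30.6% and 61.1% of the B cells of DN3b γδ-.

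The 15 lowest by the same rule held Rag1 and several genes not in any list. Ptgs2, the cyclooxygenase-2 gene, was at 21.1 and 0.414 CPM (-5.67) and the chemokine gene Ccl4 at 40.0 and 0.867 CPM (-5.53). The imprinted transcript H19 was at 72.5 and 5.22 CPM (-3.80), the E-cadherin gene Cdh1 at 21.1 and 1.08 CPM (-4.29) and Ctla2a at 123.7 and 11.3 CPM (-3.45). Hdac4, a class IIa histone deacetylase gene, was among the 5 largest losses of share, from 64.5% to 16.5% of barcodes (285.9 to 42.7 CPM). Gstp1 fell from 93.5 to 8.19 CPM (-3.51) and stood at 46.2 CPM in DN4 γδ-. The most widely found of the 15 was Gm4632, a transcript annotated as antisense, at 1110 CPM in DN3a and 65.5 CPM in DN3b γδ- (-4.08). It was in 94.4% of DN3a and 20.5% of DN3b γδ- barcodes, the largest loss of share among the genes ranked, beside 18.9% and 5.56% of the spiked B cells, and per barcode it went from 9.02 to 1.23 UMIs.

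Barcodes low in cycle transcripts were compared apart from the rest, those with at most 14 UMIs of the 2 cycle lists at 4000 UMIs. The 168 such barcodes of DN3b γδ- are 0.952% of the library, and the 3518 of DN3a are 57.6%, so the values describe a small part of DN3b γδ-. Ptcra was at 490.0 CPM in these DN3a barcodes and 257.4 CPM in these DN3b γδ- barcodes, found in 77.2% and 56.0%. Rag1 was at 541.9 and 238.1 CPM (76.0% and 52.4%), Hes1 at 629.3 and 282.7 CPM and Notch3 at 169.3 and 58.0 CPM (46.8% and 20.8%). The log2 ratios were thus -0.93 for Ptcra, -1.19 for Rag1, -1.15 for Hes1 and -1.54 for Notch3, each nearer 0 than over all barcodes and each still negative. Of the genes past 2-fold over all barcodes, 696 higher and 1634 lower ones also passed 5 CPM here, and 418 of these changed direction. Among them were Ccnd3, Mxd4, Erg and Arpp21, described above, with log2 ratios of -0.27, 0.54, 0.47 and 0.155. In the 168 barcodes Cd8a, at 2.98 CPM, was found in only 2, so ratios of genes of few CPM rest on few UMIs here. Cd28 was at 40.3 and 105.7 CPM in the same barcodes, found in 13.4% and 36.3%. Over all genes 589 were higher and 757 lower among low-cycle barcodes (6.30% and 8.10%), and 197 and 394 of these were in the counts over all barcodes too. B cell markers moved with this comparison, since 3 of the 4 past 5 CPM were higher in these DN3b γδ- barcodes and none lower (median 1.76). Ighm was at 87.0 and 253.0 CPM and Cd74 at 21.0 and 144.3 CPM, while Cd79b was at 44.3 and 41.7 CPM. Without the barcodes of under 3 Cd3 UMIs, 1 of the 168 in DN3b γδ- and 2 of the 3518 in DN3a, the median was 0.36, the log2 ratio of Cd74 was -0.05 and that of Ighm 1.54. The list medians moved to -0.50 for the Notch pathway, -0.59 for signal-induced genes and -0.41 for FoxO and quiescence genes. Nearer 0 lay the IL-7 pathway (-0.067), survival and death (-0.049), proximal TCR signalling (-0.10), pre-TCR chains (-0.16) and V(D)J recombination (-0.19). The medians of ribosome biogenesis and nucleotide synthesis moved to 0.37 and 0.62. Nucleotide synthesis shares Tyms, Rrm1 and Rrm2 with the lists that chose the barcodes, so its value is not independent of the choice.

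The opposite end was described in the same way, with the 281 DN3a barcodes above 34 cycle UMIs against the 16443 of DN3b γδ-. Ptcra was at 173.5 CPM in the DN3a and 64.4 CPM in the DN3b γδ- barcodes, found in 37.4% and 19.7%. Rag1 was at 103.2 and 35.7 CPM (21.7% and 11.5%), Hes1 at 234.9 and 80.2 CPM and Il2ra at 383.5 and 101.5 CPM (64.4% and 29.9%). At both ends the DN3a value was the higher, and within each library Ptcra and Rag1 were lower in the barcodes rich in cycle transcripts.

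The other wild-type libraries set these levels in order. Rag1, at 455.9 CPM in DN3a and 36.1 in DN3b γδ-, stood at 70.0 CPM in the DN4 γδ- library, and among γδ+ cells at 3.28 CPM in DN3b and 0.980 in DN4. Ptcra was at 63.1 CPM in DN3b γδ- and 63.2 in DN4 γδ-, and at 7.36 in DN3b γδ+. Il2ra, by contrast, was at 96.9 CPM in DN3b γδ- and 12.01 in DN4 γδ-, the sort of DN4 cells being CD25-negative. Mki67 was at 365.8 CPM in DN3b γδ-, 340.7 in DN4 γδ- and 332.9 in DN3b γδ+, and so near to each other in 3 libraries, with DN3a at 10.6 far below. From DN3a over DN3b γδ- and DN4 γδ- to DN3b γδ+, Id3 stood at 36.9, 91.7, 121.4 and 350.2 CPM and Trac at 1.18, 5.33, 15.9 and 39.3 CPM. Etv5 and Cd5 were likewise higher in DN3b γδ+ than in DN3b γδ-, at 71.0 against 6.90 CPM and 129.7 against 10.9 CPM.

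**Figure D5:**
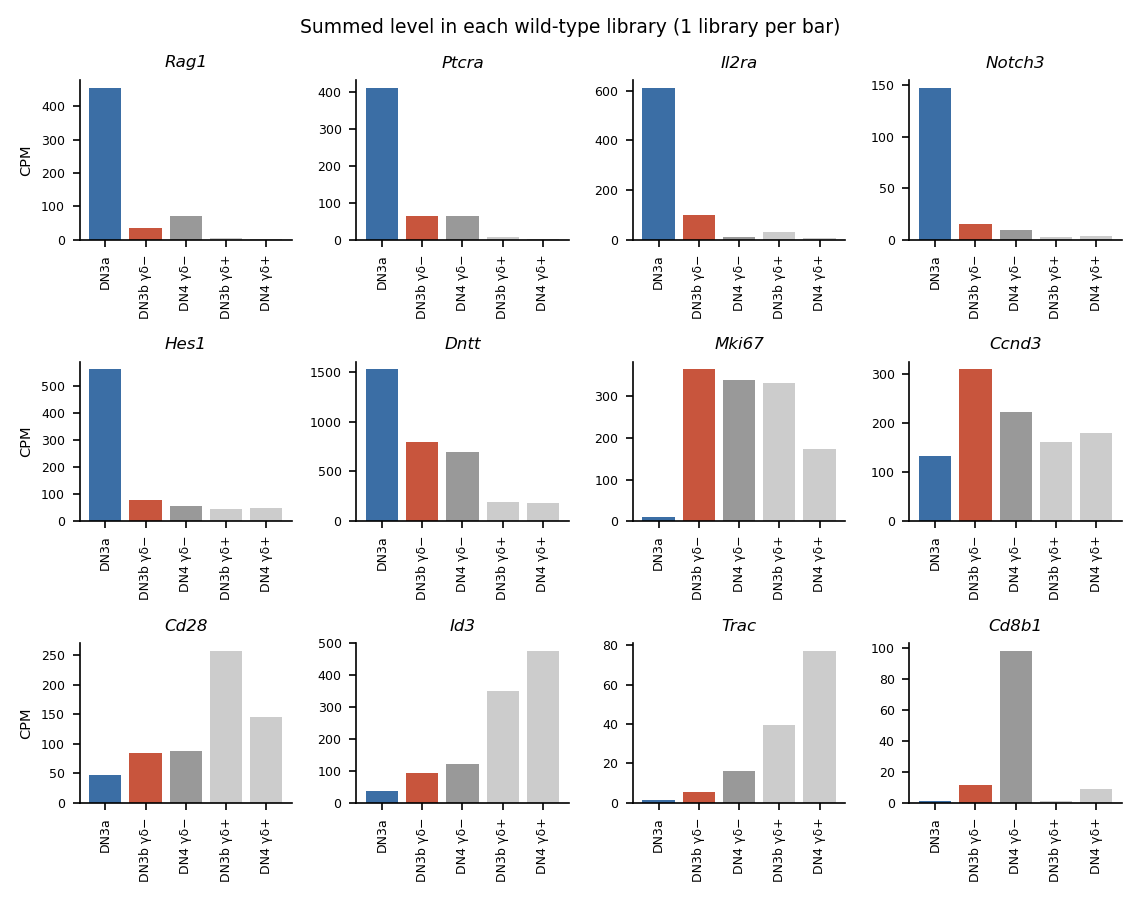
Summed level of 12 genes (vertical, CPM, each panel with its own axis from 0) in the 5 wild-type libraries, 1 bar per library. DN3a stands above the other bars for Rag1, Ptcra, Il2ra, Notch3, Hes1 and Dntt and below them for Mki67, Ccnd3, Cd28, Id3 and Trac, and Cd8b1 is highest in DN4 γδ- at 98.6 CPM.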

How the data were processed

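Single-cell 3′ gene expression was measured in 7 libraries, of which wild-type DN3a and DN3b γδ- are compared. The deposited files hold raw UMI counts per gene and barcode that the authors made with Cell Ranger on mm10 with an added Trdc-GFP feature; the headers name release 4.0.0 and the submitters' processing notes 5.0.1. The authors merged no libraries in these files. UMIs of kept barcodes were summed per gene and library with Python 3.11.15, numpy 2.4.6, scipy 1.17.1 and pandas 2.3.3 and drawn with matplotlib 3.10.9. They were expressed as CPM, with exact Poisson, exact binomial (Clopper-Pearson) or exact conditional binomial 95% intervals, and a count of 0 entered ratios as 3 counts. Genes needed 5 CPM in 1 library. With 1 library per stage no test was run, and called means past 2-fold. Barcodes were thinned to 4000 UMIs for shares. B cells were barcodes with at least 10 UMIs of Cd79a, Cd79b and Ms4a1, at least 2 times as many of these as of Cd3 genes and at most 10% mitochondrial UMIs. No doublet caller was run, and an alternative left out barcodes above 2 times the median UMIs. TMM factors came from edgeR 4.0.16 in R 4.3.3. The steps were tested on simulated data.

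Named genes were the 15 highest and 15 lowest ratios among genes of at least 20 CPM in 1 library and 10 UMIs in each (predicted genes kept their rank and were named last), the 5 largest changes of share in each direction, and members of the lists. The ranking left out ribosomal protein, mitochondrial-genome and TCR segment genes and genes higher in B cell barcodes, which was 2457 genes. Members and lists were chosen with earlier results of these data known. Genes of the γ constant regions were matched as Tcrg-C symbols, and positions were from GENCODE vM21. Promoter sequences were from RefSeq on GRCm38.p6, matched by symbol or older symbol for 7457 of the 9261 genes. In the series' methods fewer cells were loaded for DN3b γδ- than barcodes were deposited, and the reason was not tested. Other settings are given in the closing section. A few list members are counted in their lists but not reported here by name.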

Additional observations from a re-analysis of the deposited data

How the results depend on the processing

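No paired analysis was possible because each stage was 1 library. Against 901 genes higher and 1636 lower of 9261, TMM gave 1782 and 878, barcodes low in cycle transcripts 589 and 757 of 9346, subtraction of the B cell level 1767 and 3454 of 7360 (24.0% and 46.9%), no CPM filter 1579 and 5072 of 17040 (9.27% and 29.8%), 20 CPM in 1 library 669 and 858 of 5953 (11.2% and 14.4%), and leaving out genes higher in B cells 701 and 600 of 4867 (14.4% and 12.3%). The share of called genes that were higher went from 35.5% to 67.0% with TMM. In 2 alternatives added after seeing the data, UMIs per barcode gave 4996 and 287, and low-cycle barcodes with at least 3 Cd3 UMIs gave 552 and 776. Shares at least 10 points apart counted 679 and 389 genes at 2500 UMIs and 5067 and 187 without thinning. The other settings (totals without mitochondrial and ribosomal protein genes, the study's filter, no B cell UMI, 3 Cd3 UMIs, no barcodes above 2 times the median UMIs, 4000 UMIs) gave 802 to 1006 higher and 1625 to 2125 lower.

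UMIs per barcode shift every log2 ratio by 1.21, which took 17 of 44 list medians from below to above 0. Those past 2-fold in CPM were γδ constant regions (0.079), the IL-7 pathway (0.14) and FoxO and quiescence (0.085), and smaller medians that did so included pre-TCR chains (0.42), V(D)J recombination (0.30), proximal TCR signalling (0.70), T-lineage factors (0.50), the Myc network (0.36), survival and death (0.63) and adhesion (0.48). Cdk6 (0.18), Arpp21 (0.182) and Syk (0.21) did too. In low-cycle barcodes 7 of 42 list medians changed sign. So did 418 of the 696 higher and 1634 lower genes past 2-fold that also passed 5 CPM there. Of the medians past 2-fold and the genes named here, without and with the Cd3 minimum, G1 cyclins and inhibitors went to -0.39 and -0.38, DN1 and DN2 markers to 0.029 and 0.037, histones to -0.18 and -0.17, Mxd4 to 0.54 and 0.53, Erg to 0.47 and 0.48, Arpp21 to 0.155 and 0.16 and Ccnd3 to -0.27 and -0.26. Cd74 went to 2.78 and, with the Cd3 minimum, back to -0.05, a change due to 3 barcodes left out. The cause was not tested. These low-cycle values rest on 168 barcodes of DN3b γδ-. The barcodes were chosen for few cycle transcripts, so the values of G1 cyclins and inhibitors, histones and Ccnd3 are not independent of the choice. Depth bounds counting error only, and the spread between animals or sorts is unknown with 1 library per stage.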

Other observations

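Interferon-stimulated genes were lower in DN3b γδ- for 11 of the 13 past 5 CPM, with none higher and a median log2 ratio of -1.69. Zbp1, a sensor of Z-form nucleic acid, was at 33.5 CPM in DN3a and 4.12 CPM in DN3b γδ- (-3.02), Isg15, a ubiquitin-like modifier, at 92.4 and 27.9 CPM (-1.73), and Bst2, a surface antiviral protein gene, at 550.2 and 199.7 CPM (-1.46). Per barcode 2 of the 13 were lower and none higher (median -0.47, beside 1.09 over all genes), and in barcodes low in cycle transcripts 2 were lower and 1 higher (-0.36). In the spiked B cells 12 genes of the list had a median of -0.75 between the same libraries. Per barcode Bst2 held 4.47 and 3.76 UMIs and Isg15 0.751 and 0.526.

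The proteasome genes gave 5 of 37 higher, none lower and a median of 0.44. Within them, and chosen after their values were seen, the 3 catalytic subunits of the immunoproteasome lay below 0, Psmb8 at 896.7 and 704.6 CPM (-0.35), Psmb9 at 171.4 and 131.9 CPM (-0.38) and Psmb10 at 214.5 and 131.7 CPM (-0.70). The constitutive subunits they replace lay above 0, with Psmb5 at 200.3 and 437.0 CPM (1.13), Psmb6 at 213.5 and 375.4 CPM (0.81) and Psmb7 at 119.5 and 149.8 CPM (0.33). With UMIs per barcode all 6 are shifted up by 1.21, so only the difference between the 2 sets carries over. Mitochondrial ribosomal protein genes gave 9 of 78 higher and none lower (0.59), and the Gimap GTPase genes 2 of 4 lower (-0.92).

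Promoter letters were also counted in sets chosen by the measured ratio, as a description. The CHR core was in 57 of 102 windows (55.9%) of genes at least 8-fold higher in DN3b γδ- and in 15.7% of those of genes at least 8-fold lower, beside 12.4% of all genes past 5 CPM. Histone windows held a CCAAT box in 34 of 37 (91.9%) and the CHR core in 51.4%.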
